A study of Mus musculus with 32 samples.

Results

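The response to lipopolysaccharide was measured in BV-2 cells that carried a scramble microRNA mimic, by setting the 4 LPS_scramble libraries against the 4 VEH_scramble libraries across all genes. These are 8 of the 32 libraries of the series, chosen by their labels alone. BV-2 cells descend from mouse microglia, which are the brain's own macrophages, and grow as an immortalised line, and the labels describe it as wild type and as a murine glioblastoma line. Cells of the LPS group received lipopolysaccharide, a component of the outer membrane of Gram-negative bacteria, at 10 ng/ml for 24 h, and the VEH group received vehicle. The labels place this treatment before the transfection and the methods order the steps differently, so that the time between the start of LPS and harvest is not certain from them. Both groups were transfected with the same non-targeting scramble mimic, so that transfection is shared and is not part of the comparison, and the other 24 libraries came from cells given a miR-7a, miR-29a or miR-146a mimic instead. Total RNA was depleted of ribosomal RNA and sequenced, which keeps non-polyadenylated transcripts in view. The methods describe replicates as independent experiments on the one line, and libraries of equal replicate number were taken as pairs where a replicate block is named. The labels also carry an age of mice, which cannot apply to a cell line and which differs between LPS replicate 1 and LPS replicates 2 to 4, and it was not used.

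Lipopolysaccharide is bound by Cd14 and Lbp and handed to the receptor Tlr4, whose adaptors start 2 branches of signalling. The Myd88 branch frees NF-kappa B from its inhibitors and drives cytokines, acute-phase proteins and the feedback genes that later damp the signal, and the Ticam1 branch activates interferon regulatory factors, the release of type I interferon and, through STAT factors, a large set of interferon-stimulated genes. In macrophages and microglia the same stimulus is known to raise the inducible nitric oxide synthase and to lower surface receptors of the resting state. Many of the earliest transcripts of the response peak within hours of the stimulus, and the libraries hold a single, later time point.

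The promoters of 4 genes that stood far apart between the groups are shown first, because they let a reader see which letter patterns of the factors of both branches lie in front of them. Each is the reference sequence of RefSeq on GRCm38.p6 from 250 bases before to 50 bases after the gene's start, 5′ to 3′ on the gene's strand, and capitals mark motif matches. Lcn2 encodes the iron-chelating acute-phase protein lipocalin 2 (chr2:32387690-32387989, minus strand), Marco a scavenger receptor for bacteria (chr1:120504975-120505274, minus strand), Saa3 a serum amyloid A protein (chr7:46715627-46715926, minus strand), and Irg1, also called Acod1, the enzyme that makes itaconate (chr14:103046762-103047061, plus strand).
Lcn2: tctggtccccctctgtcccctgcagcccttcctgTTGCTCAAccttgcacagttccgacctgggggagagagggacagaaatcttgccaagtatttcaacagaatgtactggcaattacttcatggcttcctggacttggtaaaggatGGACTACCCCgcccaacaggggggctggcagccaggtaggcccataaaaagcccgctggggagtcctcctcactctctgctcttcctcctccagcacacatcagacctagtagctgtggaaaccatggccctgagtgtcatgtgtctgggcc
Marco: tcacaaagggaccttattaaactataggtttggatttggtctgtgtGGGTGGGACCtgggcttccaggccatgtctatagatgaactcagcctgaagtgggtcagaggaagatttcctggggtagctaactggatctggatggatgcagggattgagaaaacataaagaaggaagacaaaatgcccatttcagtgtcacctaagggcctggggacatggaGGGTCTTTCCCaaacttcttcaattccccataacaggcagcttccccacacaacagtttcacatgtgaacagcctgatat
Saa3: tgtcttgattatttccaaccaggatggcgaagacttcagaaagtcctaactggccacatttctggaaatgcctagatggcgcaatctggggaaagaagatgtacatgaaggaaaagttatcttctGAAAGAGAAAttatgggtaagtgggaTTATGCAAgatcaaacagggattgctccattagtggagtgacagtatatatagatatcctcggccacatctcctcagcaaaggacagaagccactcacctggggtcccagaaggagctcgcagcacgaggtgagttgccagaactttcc
Irg1: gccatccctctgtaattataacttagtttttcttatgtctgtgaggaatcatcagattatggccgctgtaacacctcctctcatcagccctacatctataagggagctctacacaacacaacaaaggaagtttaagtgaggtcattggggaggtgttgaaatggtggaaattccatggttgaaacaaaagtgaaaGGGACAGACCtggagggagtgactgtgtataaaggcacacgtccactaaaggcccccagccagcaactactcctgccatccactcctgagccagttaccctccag
In the Lcn2 promoter the capitals mark a match of the C/EBP type (TTGCNNAA) at bases -216 to -209 from the start and one of the kappa B type (GGG and CC parted by 5 bases of any kind) at -102 to -93 on the opposite strand. The Marco promoter held kappa B type matches at -204 to -195 and at -30 to -21, and the latter overlapped another match, at -29 to -20 on the opposite strand. The Saa3 promoter held a match of the interferon-stimulated response element type (ISRE, GAAA and GAAA parted by 2 bases of any kind) at -125 to -116 and one of the C/EBP type at -99 to -92 on the opposite strand, and the Irg1 promoter held a kappa B type match at -55 to -46. Both strands were searched, also for the AP-1 type TGANTCA, the STAT type TTCNNNGAA and the E-box CACGTG. Of the 32851 promoters in the reference table, 50.8% held the kappa B type, 3.44% the ISRE type, 10.8% the C/EBP type, 7.81% the AP-1 type, 8.30% the STAT type and 7.15% the E-box. The kappa B type was held by 67.1% of the promoters of genes tested, 62.6% of those of genes higher with LPS and 71.7% of those of genes lower with LPS. The same window of Il1b, a further gene that was higher with LPS and was looked up in the same way, held none of the 6 patterns, which says only that these letters are not in it.

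The patterns were then looked up in the promoters of the interferon-stimulated genes and interferon-induced GTPases that were higher with LPS, of which 33 of 46 genes had an entry. The ISRE type was found in 20 of their 38 promoters (52.6%), against 3.17% of the promoters of all genes tested, 8.76% of those of genes higher with LPS, 1.56% of those of genes lower with LPS and 6.00% of those of the cell-cycle genes that were higher. The AP-1 and the STAT type were each found in 26.3% of the 38 promoters, against 4.94% and 6.67% of those of genes tested, and the kappa B type in 57.9%. These shares describe short letter matches and no binding was measured. The 8 windows of 50 bases below show the match, in capitals, with 20 bases on each side, and they were chosen after the expression values were seen. They come from Gbp2 (chr3:142620584-142620633, plus strand), Ifit3 (chr19:34583353-34583402, plus strand), Ifitm3 (chr7:141010713-141010762, minus strand), Ifi205 (chr1:174031860-174031909, minus strand), Isg15 (chr4:156200867-156200916, minus strand), Rsad2 (chr12:26456543-26456592, minus strand), Ifit1 (chr19:34640765-34640814, plus strand) and Gm12250 (chr11:58183732-58183781, plus strand).
Gbp2: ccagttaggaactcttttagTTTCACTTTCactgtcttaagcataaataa
Ifit3: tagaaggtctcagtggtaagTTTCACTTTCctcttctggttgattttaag
Ifitm3: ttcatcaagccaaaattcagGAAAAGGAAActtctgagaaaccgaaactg
Ifi205: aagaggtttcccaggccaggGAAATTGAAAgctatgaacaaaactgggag
Isg15: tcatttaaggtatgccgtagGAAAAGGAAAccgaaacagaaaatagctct
Rsad2: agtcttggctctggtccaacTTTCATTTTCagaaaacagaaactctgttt
Ifit1: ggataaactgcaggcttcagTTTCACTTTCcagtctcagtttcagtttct
Gm12250: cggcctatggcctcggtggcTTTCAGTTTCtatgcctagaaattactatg
In Gbp2, Ifit3, Rsad2, Ifit1 and Gm12250 the match lay on the strand opposite to the gene, so that it reads as its reverse complement, and in Ifitm3, Ifi205 and Isg15 it lay on the gene's own strand.

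The macrophage character of the line was visible in all 8 libraries. Expression is given as CPM, the counts of a gene scaled to a common library size and composition, and is compared between libraries and not between genes. Adgre1, the macrophage surface marker F4/80, lay at 1125 to 1381 CPM with LPS and 583 to 702 CPM with vehicle, and Cd68, a lysosomal macrophage marker, at 710.3 to 1340.01 CPM with LPS and 793 to 1823 CPM with vehicle. Among the markers that set brain microglia apart, levels were low, with Sall1 at most 0.0714 CPM, Siglech at most 0.324 CPM, Cx3cr1 at 0.324 to 1.47 CPM and P2ry12 at 2.34 to 5.38 CPM. All 9 neuronal markers stayed under 1 CPM in all 8 libraries, and of the other lists Aldoc of the astrocytes (80.4 to 104 CPM with LPS and 110.02 to 207 CPM with vehicle), Mbp of the oligodendrocytes (2.29 to 3.19 CPM with LPS and 4.05 to 7.02 CPM with vehicle) and Kdr of the endothelium (252 to 316 CPM with LPS and 151 to 200.1 CPM with vehicle) were the members that passed the test, Aldoc and Mbp being lower and Kdr higher with LPS. The calls of Aldoc and Mbp were lost when LPS replicate 1, LPS replicate 2, LPS replicate 4 or VEH replicate 4 was left out, and that of Mbp also without LPS replicate 3 or VEH replicate 2.

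Depth and composition differed between libraries. The restored totals were 2725545 counts in LPS replicate 1 and up to 20521289 in LPS replicate 4, and from 3884771 to 9636122 in the vehicle libraries, so that 3 counts correspond to between 0.139 and 1.08 CPM. Small structural RNAs (7SK, RNase P, RNase MRP, 7SL and their kin) took 2.96% to 5.81% of the counts with LPS and 6.75% to 12.2% with vehicle, and the means of 4.15% (SD 1.25) and 9.82% (SD 2.28) differed by the smallest p that 4 against 4 allows (exact permutation test, two-sided, p = 0.0286). The mitochondrial share did not separate the groups (2.30%, SD 0.466, against 2.16%, SD 0.485, exact permutation p = 0.686). Replicates 1 and 2 also stood apart from replicates 3 and 4 in both groups: among 10422 tested genes with a mean of at least 5 CPM, 36 had every value of replicates 3 and 4 at least 1.5 times every value of replicates 1 and 2, Ccl3, B2m and Casp1 among them, and 3 had the reverse. The part of these differences in the results below was not tested beyond the alternatives given there.

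**Figure D1:**
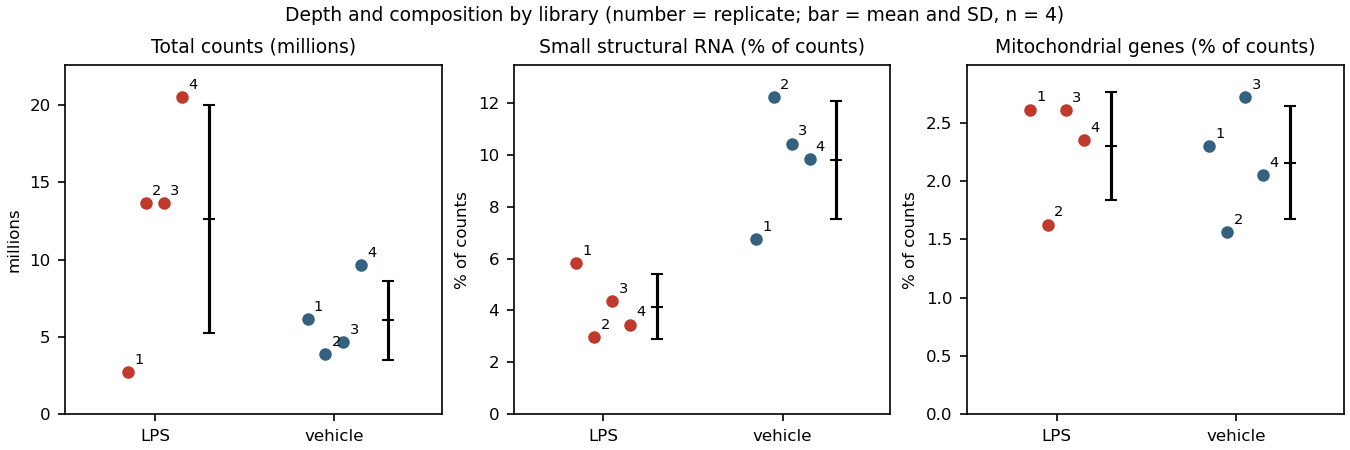
Total counts, share of small structural RNAs (%) and share of mitochondrial transcripts (%) of the 8 libraries. Points are libraries, numbered by replicate, and the bars give the mean and SD of each group of 4. The structural RNA share of every LPS library (2.96% to 5.81%) lies below that of every vehicle library (6.75% to 12.2%), whereas the mitochondrial shares overlap.

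Of 12403 genes tested, 2187 (17.6%) passed an adjusted p of 0.05 in limma-voom with a log2 fold change above 0.3 in size. With LPS 1167 of them were higher (9.41%) and 1020 lower (8.22%). The median log2 fold change over all genes tested was 0.01, after a scaling by composition that moved LPS over vehicle by -0.21 (log2) against plain totals, and changes are relative to it. The counts of gene lists given below stand beside these shares and cover only the members that passed the filter on low counts. Members with few or no vehicle reads passed it through their LPS libraries and so had to differ, and no difference between a list and the other genes was tested. In 2844 genes (22.9%) the 4 LPS values did not overlap the 4 vehicle values, and 4137 genes had an unadjusted p below 0.05. Standard errors follow the ± sign, SD is named where it is meant, and the 4 values of a group are given in the order of replicates 1 to 4. Without LPS replicate 4 the count fell to 1126, without VEH replicate 4 to 1312, without VEH replicate 3 to 1424 and without LPS replicate 1 to 1481, and the 659 genes lower without LPS replicate 1 were also under the main count by more than 1.5 times.

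Among the genes with the largest differences, 2 had no count in any vehicle library. Lcn2 was measured at 102, 89.9, 126 and 77.5 CPM in the LPS libraries and 0, 0, 0 and 0 CPM in the vehicle libraries, and Marco at 60.7, 27.7, 47.7 and 35.9 CPM in the LPS libraries and 0, 0, 0 and 0 CPM in the vehicle libraries. Against the limit set by 3 counts over the vehicle group, Lcn2 was at least 728-fold and Marco at least 317-fold higher with LPS (adjusted p = 2.59e-07 and adjusted p = 8.25e-06). Saa3 was at 858, 649, 1018 and 638 CPM in the LPS libraries and 1.46, 1.47, 3.54 and 1.98 CPM in the vehicle libraries, and every LPS library exceeded every vehicle library by more than 2 orders of magnitude (log2 fold change 8.58 ± 0.34, adjusted p = 8.42e-08). Its promoter carries both the ISRE type and the C/EBP type match shown above. Others of the 15 largest differences were Cfb, Ccl5, Gbp6, Gbp2, Ly6a, Ifit3, Ifi44, Apol9a, Rtp4, Pyhin1, Irg1 and Apol9b. Ly6a, the stem-cell antigen Sca-1, was at 27.6, 55.4, 56.8 and 35.7 CPM with LPS and 0.162, 0.882, 0 and 2.22 CPM with vehicle (log2 fold change 6.28 ± 0.74, adjusted p = 0.000273). Ifi44, an interferon-induced gene, was at 13.6, 11.1, 15.3 and 8.96 CPM with LPS and 0, 0.294, 0 and 0.702 CPM with vehicle (log2 fold change 5.59 ± 0.60, adjusted p = 0.00014), and Rtp4, a receptor transporter also induced by interferon, at 22.6, 19.8, 39.96 and 19.9 CPM with LPS and 0.486, 0, 1.01 and 1.75 CPM with vehicle (log2 fold change 5.12 ± 0.67, adjusted p = 0.000477). Pyhin1, a member of the interferon-inducible PYHIN family, was at 13.2, 10.5, 12.99 and 10.8 CPM with LPS and 0, 0, 1.01 and 0.936 CPM with vehicle (log2 fold change 5.08 ± 0.62, adjusted p = 0.000314). The vehicle libraries held few or no reads of these 4 genes and none of them reached the lowest LPS value. Apol9a (3.73 to 11.4 CPM with LPS and 0 to 0.755 CPM with vehicle) and Apol9b (8.73 to 10.6 CPM with LPS and 0 to 1.18 CPM with vehicle) are near-identical copies, so that reads may have been split between them.

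**Figure D2:**
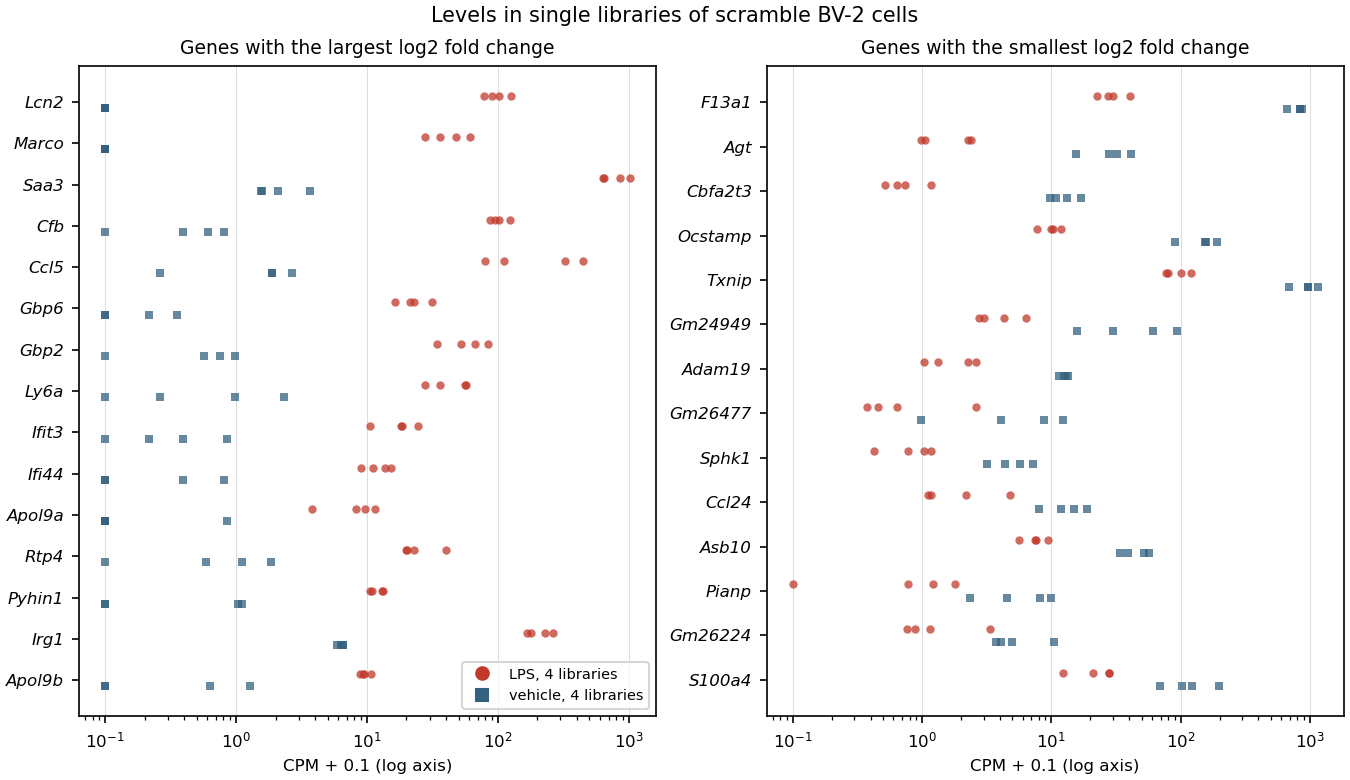
Expression of the 15 genes with the largest and of 14 of the 15 with the smallest log2 fold change, as CPM + 0.1 on a log axis, with 1 dot for each of the 8 libraries. The LPS and vehicle dots are separate for each gene shown except Gm26477. Lcn2 and Marco sit at 0 in all 4 vehicle libraries and at 77.5 to 126 CPM and 27.7 to 60.7 CPM with LPS.

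At the other end, F13a1, the A chain of coagulation factor XIII, had the lowest fold change of all. It was at 40.6, 22.3, 30.1 and 27.1 CPM in the LPS libraries and 841, 866, 665 and 843 CPM in the vehicle libraries (log2 fold change -4.82 ± 0.18, adjusted p = 8.42e-08). Agt, the precursor of angiotensin, was at 2.15, 0.951, 2.28 and 0.882 CPM with LPS and 31.9, 27.9, 40.97 and 15.4 CPM with vehicle (log2 fold change -4.34 ± 0.44, adjusted p = 9.91e-05), and Cbfa2t3, a transcriptional corepressor, at 1.08, 0.543, 0.641 and 0.418 CPM with LPS and 10.9, 16.8, 13.2 and 9.59 CPM with vehicle (log2 fold change -4.29 ± 0.35, adjusted p = 3.01e-05). In none of these 3 genes did an LPS value come near the lowest vehicle value. Ocstamp, a membrane protein needed for the fusion of osteoclasts and macrophages, fell from a range of 90.1 to 190 CPM with vehicle to 7.66 to 11.8 CPM with LPS (log2 fold change -3.92 ± 0.25, adjusted p = 5.07e-06). Txnip, the thioredoxin-interacting protein that limits glucose uptake, was at 119.9, 79.3, 100.3 and 76.4 CPM with LPS and 1144, 966, 974 and 688 CPM with vehicle (log2 fold change -3.34 ± 0.19, adjusted p = 2.71e-06). Adam19, a membrane metalloprotease, lay at 0.928 to 2.497 CPM with LPS and 11.4 to 13.3 CPM with vehicle (log2 fold change -3.12 ± 0.30, adjusted p = 8.63e-05), Sphk1, which phosphorylates sphingosine, at 0.325 to 1.08 CPM with LPS and 3.08 to 7.06 CPM with vehicle (log2 fold change -2.89 ± 0.43, adjusted p = 0.000998) and S100a4, a calcium-binding protein of motile cells, at 12.2 to 27.8 CPM with LPS and 68.8 to 198 CPM with vehicle (log2 fold change -2.49 ± 0.33, adjusted p = 0.000485). Also among the 15 smallest were Asb10, Pianp, Ccl24 and 3 short non-coding RNAs (Gm24949, Gm26477 and Gm26224), of which Gm26224 lies within Gas5 and Gm26477 overlapped between the groups and lost its call without LPS replicate 1, LPS replicate 2, LPS replicate 4, VEH replicate 3 or VEH replicate 4.

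Of 20 genes of the receptor complex tested, Tlr4 with its partners, adaptors and kinases, 4 were higher and none lower, beside 9.41% and 8.22% of all genes tested (median log2 fold change 0.17). Tlr4 was at 58.5, 55.8, 65.7 and 50.6 CPM in the LPS libraries and 57.04, 46.2, 47.04 and 48.5 CPM in the vehicle libraries, and these overlapped (log2 fold change 0.20 ± 0.14, adjusted p = 0.35). Its co-receptor Cd14 was at 52.04, 58.4, 67.1 and 68.1 CPM in the LPS libraries and 23.8, 30.3, 40.97 and 51.9 CPM in the vehicle libraries, with the highest vehicle library just under the lowest LPS library (log2 fold change 0.79 ± 0.22, adjusted p = 0.0327). Lbp, which carries LPS to Cd14, rose 2.94-fold (4.596 to 13.998 CPM with LPS and 2.06 to 3.03 CPM with vehicle, adjusted p = 0.0363). Traf6, the ubiquitin ligase downstream of Myd88, rose 1.66-fold (71.4 to 133 CPM with LPS and 53.6 to 66.8 CPM with vehicle, adjusted p = 0.0269), and Irak3, a kinase-dead brake on the same pathway, rose 2.87-fold, at 13.6, 9.71, 13.3 and 12.9 CPM with LPS and 4.86, 3.53, 5.06 and 3.51 CPM with vehicle (adjusted p = 0.00142). Irak3 was called whichever library was left out. Cd14 lost its call without LPS replicates 2, 3 or 4 or VEH replicates 1, 2 or 3, Traf6 without LPS replicates 2 or 4 or VEH replicates 2, 3 or 4, and Lbp in every left-out fit other than that without LPS replicate 4, and the list's count fell to 1 without LPS replicate 2, VEH replicate 2 or VEH replicate 3.

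Within NF-kappa B signalling 3 of 16 inhibitors and feedback genes were higher and 1 lower, beside 9.41% and 8.22% of all genes tested. None of the 5 Rel subunits was called, and the difference between the 2 sets was not tested. Without VEH replicate 1 the higher count was 5. When 1 library was left out, 0 or 1 of the Rel subunits was called lower. Tnfaip3, the ubiquitin-editing enzyme A20, was at 132, 143, 106 and 130.1 CPM in the LPS libraries and 56.7, 58.8, 54.6 and 60.8 CPM in the vehicle libraries (log2 fold change 1.14 ± 0.14, adjusted p = 0.000327). Its partner Tnip1 lay at 108 to 128 CPM with LPS and 62.7 to 75.6 CPM with vehicle (log2 fold change 0.72 ± 0.13, adjusted p = 0.00381), and Bcl3, an atypical I kappa B protein that acts in the nucleus, at 9.33, 11.4, 25.8 and 21.4 CPM with LPS and 2.43, 3.23, 3.03 and 3.16 CPM with vehicle (log2 fold change 2.49 ± 0.42, adjusted p = 0.00214). For all 3 the LPS libraries lay above all vehicle libraries. Nfkbid, another nuclear I kappa B protein, was in contrast lower in every LPS library, at 10.4, 10.1, 11.3 and 9.19 CPM with LPS and 18.96, 20.9, 26.6 and 21.1 CPM with vehicle (log2 fold change -1.09 ± 0.17, adjusted p = 0.00137). Nfkbia, the classical I kappa B alpha, overlapped between the groups (31.5 to 61.4 CPM with LPS and 29.4 to 52.6 CPM with vehicle, log2 fold change -0.08 ± 0.23, adjusted p = 0.838), and the sign of its difference turned under several alternatives. Rela, the p65 subunit, was at 24.1 to 36.2 CPM with LPS and 29.3 to 55.6 CPM with vehicle (log2 fold change -0.66 ± 0.22, adjusted p = 0.0623). With the replicate number as a block 6 members of the whole list were higher and 2 lower, Rela among the latter (log2 fold change -0.76, adjusted p = 0.0198).

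Of 32 cytokine genes listed 18 were tested, of which 5 were higher and 2 lower, and of 33 chemokine genes and receptors listed 14 were tested, of which 4 were higher and 3 lower, beside 9.41% and 8.22% of all genes tested. Il1a, which encodes the alarm cytokine interleukin 1 alpha, was at 30.5, 20.2, 27.2 and 24.4 CPM in the LPS libraries and 5.83, 3.82, 7.84 and 6.32 CPM in the vehicle libraries (log2 fold change 2.04 ± 0.24, adjusted p = 0.000245). The receptor antagonist Il1rn, which blocks its action, rose at the same time, at 57.1, 94.2, 85.3 and 88.6 CPM with LPS and 14.7, 12.1, 23.5 and 26.4 CPM with vehicle (log2 fold change 2.10 ± 0.25, adjusted p = 0.000291). Il1b gave few reads, at 3.71 to 12.8 CPM with LPS and 0 to 1.26 CPM with vehicle (log2 fold change 4.01 ± 0.93, adjusted p = 0.0128). Ebi3, the shared chain of interleukins 27 and 35, rose 3.63-fold (14.4 to 22.7 CPM with LPS and 2.94 to 6.9003 CPM with vehicle, adjusted p = 0.000797), and Vegfa, the vascular growth factor, rose 1.87-fold (134 to 215 CPM with LPS and 64.5 to 104 CPM with vehicle, adjusted p = 0.00793). Tgfb1, an anti-inflammatory growth factor, was at 30.5, 38.9, 47.95 and 46.6 CPM in the LPS libraries and 64.005, 156, 123 and 102 CPM in the vehicle libraries, and the highest LPS library stayed below the lowest vehicle library (log2 fold change -1.34 ± 0.25, adjusted p = 0.00443). Pdgfa was also lower (25.2 to 32.9 CPM with LPS and 35.3 to 58.7 CPM with vehicle, adjusted p = 0.0385), a call that was lost without LPS replicates 1, 2 or 4 or VEH replicates 3 or 4. Tnf overlapped between the groups, at 20.8, 11.7, 19.98 and 15.6 CPM with LPS and 16.5, 16.5, 17.7 and 16.96 CPM with vehicle (log2 fold change -0.09 ± 0.20, adjusted p = 0.799), and the sign of this small difference turned without LPS replicate 2.

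Ccl5, a chemokine for T cells and monocytes, had the largest difference of the chemokines. It was at 79.7, 110.5, 324 and 444 CPM in the LPS libraries and 0.162, 1.76, 1.77 and 2.57 CPM in the vehicle libraries, so that even the lowest LPS library exceeded the highest vehicle library by far (log2 fold change 7.25 ± 1.06, adjusted p = 0.00095), while the LPS libraries themselves differed among each other, replicates 3 and 4 being the higher. Ccl9 (12.9 to 17.1 CPM with LPS and 4.41 to 7.33 CPM with vehicle, 2.78-fold), Cxcl14 (7.54 to 11.7 CPM with LPS and 3.79 to 6.16 CPM with vehicle, 1.85-fold) and the atypical chemokine receptor Ccrl2 (18.3 to 21.1 CPM with LPS and 5.88 to 6.81 CPM with vehicle, 2.98-fold) were also higher (adjusted p = 0.00081, 0.0262 and 0.000232). Lower were Ccl24, an attractant of eosinophils, at 1.08, 1.02, 4.71 and 2.09 CPM with LPS and 14.9, 7.94, 18.7 and 11.8 CPM with vehicle (log2 fold change -2.66 ± 0.41, adjusted p = 0.00139), Pf4, the platelet factor 4, at 39.3 to 59.3 CPM with LPS and 64.005 to 178 CPM with vehicle (log2 fold change -1.26 ± 0.28, adjusted p = 0.0101), and the receptor Ccr1 at 0.718 to 1.76 CPM with LPS and 1.78 to 6.32 CPM with vehicle (log2 fold change -1.34 ± 0.42, adjusted p = 0.0455). Ccl3, by contrast, was at 57.4, 26.6, 233 and 189 CPM with LPS and 30.6, 47.9, 297 and 233 CPM with vehicle, where replicates 3 and 4 of both groups lay far above replicates 1 and 2 and the groups overlapped (log2 fold change -0.14 ± 0.80, adjusted p = 0.92). Ccl2 (1.67 to 6.92 CPM with LPS and 0.588 to 3.08 CPM with vehicle, adjusted p = 0.522) and Ccl4 (10.9 to 24.3 CPM with LPS and 11.02 to 35.4 CPM with vehicle, adjusted p = 0.619) also overlapped. Cxcl14 lost its call without LPS replicates 2 or 4 or VEH replicates 3 or 4, and Ccr1 in every left-out fit other than that without VEH replicate 1.

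Of 19 secreted acute-phase and antimicrobial proteins listed, 8 were tested. Of these 5 were higher and none lower, with a median log2 fold change of 2.83. The higher count was 5 in each of the 8 fits that left out 1 library, and 1 member was called lower without VEH replicate 2 and in the fit blocked by replicate. Genes with next to no reads in the vehicle libraries, such as Lcn2, passed the filter on low counts through their LPS libraries and so had to differ. Besides Lcn2 and Saa3 the higher members were Hp, the haemoglobin scavenger haptoglobin, at 36.3, 21.1, 30.1 and 19.4 CPM with LPS and 4.21, 4.41, 3.54 and 1.29 CPM with vehicle (log2 fold change 3.12 ± 0.40, adjusted p = 0.000415), Cp, the copper-carrying ferroxidase ceruloplasmin, at 178, 129.5, 161 and 131 CPM with LPS and 44.9, 22.6, 22.8 and 18.1 CPM with vehicle (log2 fold change 2.54 ± 0.25, adjusted p = 9.51e-05), and Serpina3g, an intracellular protease inhibitor, at 6.09, 8.47, 9.295 and 3.77 CPM with LPS and 1.62, 0.294, 1.01 and 0.117 CPM with vehicle (log2 fold change 3.48 ± 0.69, adjusted p = 0.00603). No LPS value of these 3 genes fell into the range of the vehicle libraries.

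Of 23 complement genes listed 15 were tested, of which 5 were higher and 2 lower. Cfb, which had few vehicle reads and passed the filter through its LPS libraries, the protease of the alternative C3 convertase, was at 102, 124, 95.3 and 86.2 CPM in the LPS libraries and 0, 0.294, 0.506 and 0.702 CPM in the vehicle libraries (log2 fold change 8.11 ± 0.55, adjusted p = 8.64e-06), and its substrate C3, the central complement component, at 1095, 1291, 989 and 1278 CPM in the LPS libraries and 302, 260.2, 154 and 135 CPM in the vehicle libraries (log2 fold change 2.51 ± 0.25, adjusted p = 9.92e-05). Every LPS library exceeded the highest vehicle library in both. C1ra, a protease of the classical pathway, rose 2.66-fold (19.2 to 28.7 CPM with LPS and 6.05 to 9.998 CPM with vehicle, adjusted p = 0.00141). Among the receptors, C5ar1 for the fragment C5a (8.54 to 14.8 CPM with LPS and 3.73 to 6.76 CPM with vehicle, adjusted p = 0.0243) and Itgam, the alpha chain of complement receptor 3 (176 to 223 CPM with LPS and 102 to 156 CPM with vehicle, adjusted p = 0.0419), were higher, whereas Itgax, the alpha chain of complement receptor 4, was lower at 44.9, 74.04, 41.7 and 64.7 CPM with LPS and 208, 248, 135 and 228 CPM with vehicle (log2 fold change -1.84 ± 0.23, adjusted p = 0.000396). C5ar1 lost its call without LPS replicate 3, VEH replicate 1 or VEH replicate 4, and Itgam in every left-out fit other than that without VEH replicate 2, and the count of higher members was then as low as 3 (without LPS replicate 3, VEH replicate 1 or VEH replicate 4).

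Of 19 enzymes of arginine, nitric oxide, itaconate and the tricarboxylic acid cycle tested, 2 were higher and 3 lower, beside 9.41% and 8.22% of all genes tested. Nos2, the inducible nitric oxide synthase, was at 43.4, 59.8, 66.9 and 80.1 CPM in the LPS libraries and 1.13, 12.4, 2.78 and 12.9 CPM in the vehicle libraries (log2 fold change 3.65 ± 0.56, adjusted p = 0.00123), with the vehicle replicates 2 and 4 above 1 and 3 but all under the LPS libraries. Irg1, which diverts aconitate to the antimicrobial metabolite itaconate, was at 264, 179.9, 228 and 167 CPM in the LPS libraries and 6.48, 6.18, 5.82 and 6.43 CPM in the vehicle libraries, a narrow spread on both sides (log2 fold change 5.03 ± 0.23, adjusted p = 2.59e-07). Ddah1, which degrades inhibitors of nitric oxide synthases, was lower at 44.5 to 55.9 CPM with LPS and 60.6 to 96.4 CPM with vehicle (adjusted p = 0.0173). The mitochondrial dehydrogenase Idh2 was lower at 186 to 229 CPM with LPS and 268 to 384 CPM with vehicle (adjusted p = 0.0288). The calls of Ddah1 and Idh2 were lost without LPS replicate 1, LPS replicate 4, VEH replicate 3 or VEH replicate 4, that of Idh2 also without LPS replicates 2 or 3, and the count of lower members was then 1.

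Interferon-stimulated genes formed one of the broadest groups. Of 44 tested, 37 were higher and none lower (1 lower without VEH replicate 2), at a median log2 fold change of 1.99 against 0.01 over all genes tested, and in 38 the groups did not overlap. The count stayed between 34 and 37 when any 1 library was left out, was 32 with all libraries thinned to the depth of the shallowest, 24 in replicates 1 and 2 alone and 35 in replicates 3 and 4 alone. Among the antiviral effectors, Ifit3, which binds viral RNA, was at 18.5, 17.9, 24.3 and 10.4 CPM in the LPS libraries and 0, 0.294, 0.759 and 0.117 CPM in the vehicle libraries (log2 fold change 5.93 ± 0.71, adjusted p = 0.000291). Isg15, the ubiquitin-like modifier, was at 12.6, 8.899, 31.3 and 14.7 CPM with LPS and 0.648, 0.882, 1.01 and 1.05 CPM with vehicle (log2 fold change 3.98 ± 0.65, adjusted p = 0.00187). Rsad2, the radical-SAM enzyme viperin, was at 142, 119, 189.7 and 87.9 CPM in the LPS libraries and 4.86, 9.998, 6.58 and 13.6 CPM in the vehicle libraries (log2 fold change 3.95 ± 0.34, adjusted p = 4.16e-05), and Oasl2, of the oligoadenylate synthetase family, at 108, 153, 191 and 122 CPM in the LPS libraries and 3.73, 7.65, 7.08 and 9.12 CPM in the vehicle libraries (log2 fold change 4.40 ± 0.30, adjusted p = 9.36e-06). All 4 had vehicle values well below the lowest LPS value, and Ifit3, Isg15 and Rsad2 carry the ISRE type windows printed above. Ifit1 (2.87 to 9.303 CPM with LPS and 0.253 to 0.585 CPM with vehicle, log2 fold change 3.43 ± 0.53, adjusted p = 0.00138), Ifitm3 (6.62 to 28.5 CPM with LPS and 0.325 to 1.02 CPM with vehicle, log2 fold change 4.47 ± 0.87, adjusted p = 0.00557) and Ifi205 (2.13 to 5.67 CPM with LPS and 0 to 0.324 CPM with vehicle, log2 fold change 4.45 ± 0.65, adjusted p = 0.000981), whose windows are shown with them, were higher too, and like Ifit3 they had few vehicle reads and passed the filter through their LPS libraries. Usp18, which removes Isg15 from proteins and damps the interferon receptor, lay at 18.1 to 32.3 CPM with LPS and 4.05 to 8.23 CPM with vehicle (log2 fold change 2.15 ± 0.29, adjusted p = 0.000566). Bst2, the membrane protein tetherin, rose 1.79-fold (183 to 255 CPM with LPS and 70.001 to 164 CPM with vehicle, adjusted p = 0.0307) and kept its call only without VEH replicate 1 or VEH replicate 2 among the fits that left out 1 library. Of the 9 sensors 5 were higher, among them the RNA sensors Ddx58, called RIG-I (33.6 to 53.9 CPM with LPS and 9.12 to 13.9 CPM with vehicle, 3.62-fold), and Ifih1, called MDA5 (53.5 to 69.99 CPM with LPS and 15.9 to 25.4 CPM with vehicle, 2.999-fold), and the endosomal receptor Tlr3 (7.196 to 8.97 CPM with LPS and 2.02 to 4.05 CPM with vehicle, 2.91-fold), with adjusted p = 0.000236, 0.000207 and 0.00269.

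Of 19 interferon-induced GTPases listed, 9 were tested and were higher, with a median log2 fold change of 2.40, and 9 or 10 were called in each fit that left out 1 library. Gbp2, Gbp6 and Gm12250 had few or no vehicle reads and passed the filter on low counts through their LPS libraries, so that they had to differ, and the count and median describe only the members that passed. These proteins coat and disrupt the vacuoles of intracellular pathogens. Gbp2 was at 34.1, 83.2, 51.7 and 66.3 CPM in the LPS libraries and 0.648, 0.882, 0 and 0.468 CPM in the vehicle libraries (log2 fold change 6.93 ± 0.67, adjusted p = 8.63e-05). Gbp6 was at 16.2, 31.02, 22.6 and 21.3 CPM with LPS and 0, 0, 0.253 and 0.117 CPM with vehicle, and since the vehicle group held 2 counts in all, the ratio of counts was 266 with a 95% counting interval of 73.4 to 2196. Gbp3 lay at 14.5 to 17.2 CPM with LPS and 1.17 to 2.04 CPM with vehicle (log2 fold change 3.23 ± 0.27, adjusted p = 3.44e-05). The 4 immunity-related GTPases tested had a median of 1.22 and the 5 guanylate-binding proteins of 3.23, a difference that was not tested. Among the former, Irgm1 was at 55.99, 66.03, 63.8 and 45.5 CPM with LPS and 24.3, 25.9, 24.8 and 19.1 CPM with vehicle (log2 fold change 1.32 ± 0.18, adjusted p = 0.000587), Igtp at 20.5, 21.2, 20.04 and 16.9 CPM with LPS and 12.6, 11.7, 6.9996 and 9.72 CPM with vehicle (log2 fold change 0.93 ± 0.20, adjusted p = 0.00939) and Gm12250 at 3.296 to 8.13 CPM with LPS and 0.117 to 1.26 CPM with vehicle (log2 fold change 3.41 ± 0.63, adjusted p = 0.00392). A further 3 of the 19 members of the family could not be tested because a restored value was uncertain, and 341 such genes would have passed the filter in all, Gbp4 and Gbp7 among them.

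Of the factors that drive these genes, 5 of 17 IRF, STAT and JAK genes were higher and 2 lower. Irf7, the amplifier of type I interferon, was at 231, 376, 339 and 244 CPM in the LPS libraries and 10.05, 20.9, 20.99 and 33.3 CPM in the vehicle libraries, 14.5-fold higher and without overlap (log2 fold change 3.86 ± 0.31, adjusted p = 3.01e-05). Irf9, which with Stat2 is part of the factor that binds ISRE sites, lay at 38.04 to 57.5 CPM with LPS and 16.04 to 20.9 CPM with vehicle (log2 fold change 1.46 ± 0.17, adjusted p = 0.000291), and Stat2 at 34.5 to 50.8 CPM with LPS and 19.9 to 30.5 CPM with vehicle (log2 fold change 0.84 ± 0.19, adjusted p = 0.0108). Stat3, activated by interleukins 6 and 10, lay at 112 to 142 CPM with LPS and 67.1 to 92.6 CPM with vehicle (log2 fold change 0.71 ± 0.15, adjusted p = 0.00948), and the kinase Jak2 at 75.8 to 85.1 CPM with LPS and 29.9 to 72.4 CPM with vehicle (log2 fold change 0.94 ± 0.24, adjusted p = 0.02). Both Irf3 (9.33 to 20.2 CPM with LPS and 22.003 to 30.3 CPM with vehicle, log2 fold change -0.83 ± 0.24, adjusted p = 0.0354), the factor first activated through Ticam1, and Irf5 (64.9 to 83.4 CPM with LPS and 101 to 138 CPM with vehicle, log2 fold change -0.68 ± 0.15, adjusted p = 0.00911) were lower in every LPS library. Irf3 lost its call without LPS replicates 1, 3 or 4 or VEH replicates 2, 3 or 4, and Jak2 without LPS replicates 1 or 4 or VEH replicates 3 or 4.

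Among 33 feedback genes tested 1 was higher and 7 lower. Socs3, an inhibitor of cytokine receptors that signal through Stat3, was at 60.3, 79.3, 65.3 and 57.1 CPM in the LPS libraries and 20.6, 27.1, 18.97 and 14.97 CPM in the vehicle libraries (log2 fold change 1.75 ± 0.20, adjusted p = 0.000202). Its relative Cish was lower, at 8.26, 8.49, 11.3 and 8.96 CPM with LPS and 17.5, 28.2, 24.03 and 21.1 CPM with vehicle (log2 fold change -1.23 ± 0.19, adjusted p = 0.00143), as was Socs6 at 41.2 to 52.3 CPM with LPS and 57.9 to 90.04 CPM with vehicle (log2 fold change -0.68 ± 0.16, adjusted p = 0.0142). Of the 26 phosphatases, RNA decay factors and transcription factors counted with them, 5 were lower and none higher. Egr2, an immediate-early transcription factor, was at 16.5, 9.103, 13.3 and 7.38 CPM in the LPS libraries and 43.3, 45.9, 65.5 and 50.9 CPM in the vehicle libraries, all LPS values below all vehicle values (log2 fold change -2.31 ± 0.23, adjusted p = 9.91e-05), Egr3 at 3.95, 4.28, 7.14 and 2.88 CPM with LPS and 10.05, 12.4, 19.2 and 13.1 CPM with vehicle (log2 fold change -1.61 ± 0.30, adjusted p = 0.00423) and the nuclear receptor Nr4a1 at 11.1, 10.7, 16.98 and 10.8 CPM with LPS and 16.5, 18.2, 43.8 and 25.03 CPM with vehicle, where the groups overlapped in 1 library of each (log2 fold change -0.95 ± 0.28, adjusted p = 0.0391). The MAP kinase phosphatase Dusp2 lay at 16.6 to 23.7 CPM with LPS and 36.8 to 62.2 CPM with vehicle (log2 fold change -1.19 ± 0.19, adjusted p = 0.00163) and Zfp36l1, which hastens the decay of AU-rich transcripts, at 98.6 to 168 CPM with LPS and 176 to 217 CPM with vehicle (log2 fold change -0.57 ± 0.17, adjusted p = 0.0436). Nr4a1 lost its call without LPS replicates 1, 2 or 4 or VEH replicates 3 or 4, and Zfp36l1 without LPS replicates 2, 3 or 4 or VEH replicates 2, 3 or 4. When 1 library was left out the lower count ran from 5 to 10 and the higher count from 1 to 2.

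**Figure D3:**
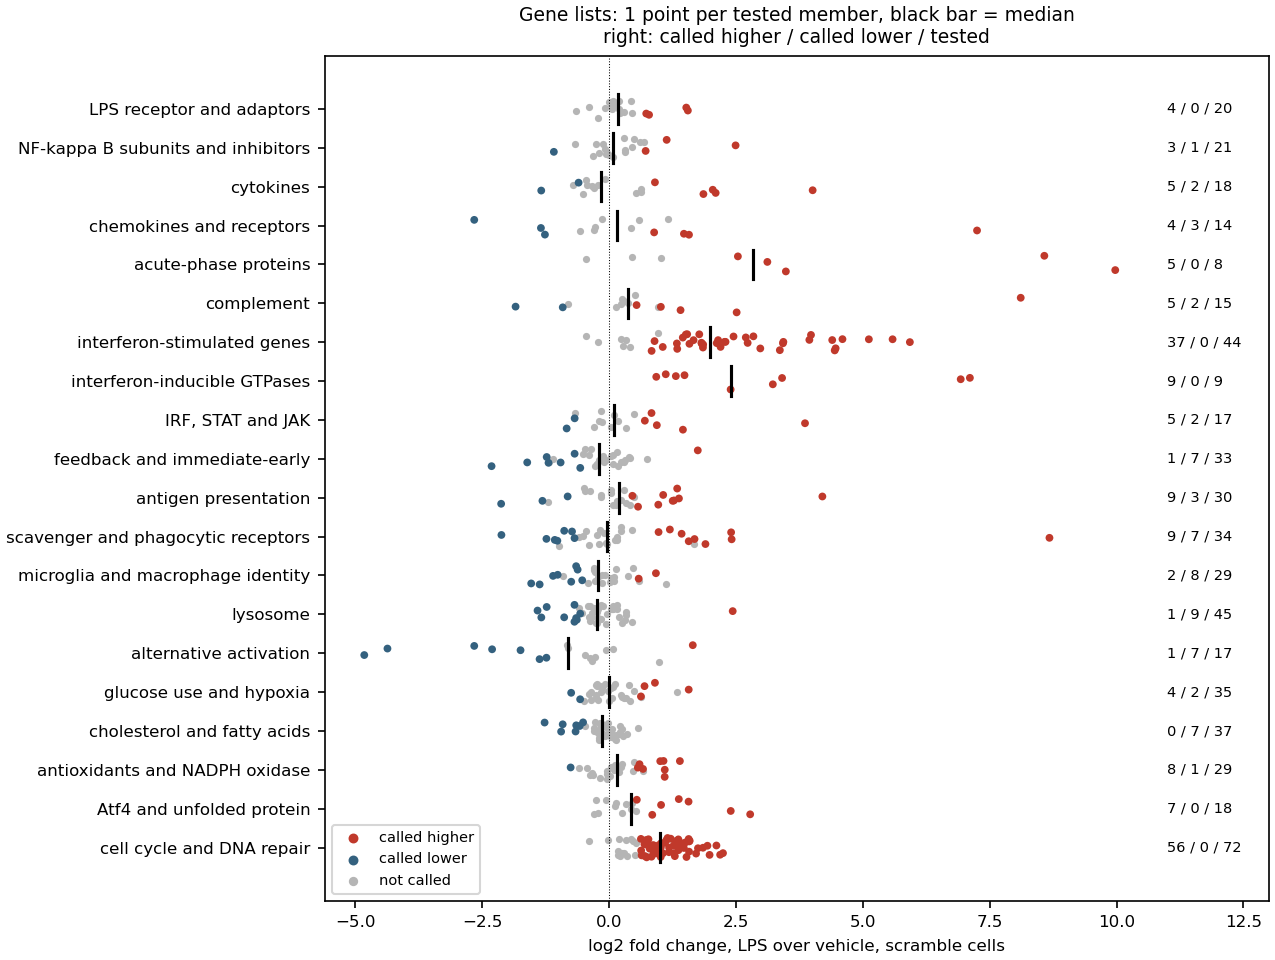
Log2 fold change (LPS over vehicle) of the tested members of 20 gene lists. Each point is 1 gene, coloured by whether it was called, bars give list medians and the counts of called and tested members are printed beside each list. The interferon lists (medians 1.99 and 2.40), the acute-phase list (2.83) and the cell-cycle list (1.00) lie to the right of 0, and the alternative-activation list (-0.81) to the left.

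Cell-cycle genes formed another broad group. Of 72 members tested, 56 were higher and none lower (1 lower without VEH replicate 1), with a median log2 fold change of 1.00. Mitosis accounted for 28 of 30, DNA repair for 11 of 12 and DNA replication for 17 of 30. The mitosis set also holds the genes of cell-cycle inhibitors Cdkn1a, Cdkn1b and Cdkn2c. In bulk RNA, a larger share of dividing cells and more transcript in each of them cannot be told apart. Mki67, the proliferation antigen Ki-67, was at 824, 729.99, 549 and 742 CPM in the LPS libraries and 356, 255, 89.3 and 143 CPM in the vehicle libraries, with vehicle replicates 1 and 2 above 3 and 4 and no overlap with the LPS libraries (log2 fold change 1.94 ± 0.36, adjusted p = 0.00446). Top2a, the topoisomerase that untangles chromosomes, was at 479.9, 579.7, 416 and 567 CPM in the LPS libraries and 193, 120.01, 86.7 and 129.9 CPM in the vehicle libraries (log2 fold change 1.98 ± 0.23, adjusted p = 0.000232). Cyclin B1, encoded by Ccnb1, which opens mitosis, was at 215, 208, 162 and 185 CPM with LPS and 72.2, 49.95, 64.01 and 70.5 CPM with vehicle (log2 fold change 1.58 ± 0.16, adjusted p = 0.000105). The kinetochore motor Cenpe at 179, 125, 115 and 163 CPM with LPS and 49.1, 27.6, 18.97 and 29.2 CPM with vehicle (log2 fold change 2.25 ± 0.26, adjusted p = 0.000226) and its partner Cenpf at 291, 211, 185 and 270.2 CPM with LPS and 75.3, 57.6, 30.6 and 51.3 CPM with vehicle (log2 fold change 2.19 ± 0.25, adjusted p = 0.000236) had the widest margins of these. The mitotic kinases Plk1 (79.3 to 99.4 CPM with LPS and 27.1 to 40.6 CPM with vehicle, log2 fold change 1.504 ± 0.16, adjusted p = 0.000136) and Aurkb (55.6 to 83.7 CPM with LPS and 26.1 to 29.9 CPM with vehicle, log2 fold change 1.30 ± 0.16, adjusted p = 0.000336) were higher in every LPS library. Cenpa, the histone of the centromere, went the other way without being called (106 to 123 CPM with LPS and 129.9 to 169 CPM with vehicle, log2 fold change -0.39 ± 0.14, adjusted p = 0.0652) and was called lower with the replicate number as a block (log2 fold change -0.40, adjusted p = 0.0319).

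The replication genes had a median log2 fold change of 0.72, against 1.35 for mitosis. Mcm7, a subunit of the replicative helicase, was at 141, 195, 152 and 172 CPM with LPS and 107, 75.6, 82.96 and 84.4 CPM with vehicle (log2 fold change 0.90 ± 0.16, adjusted p = 0.00308), and Mcm10, which activates it, at 43.8, 78.4, 42.3 and 52.6 CPM with LPS and 23.2, 23.5, 13.9 and 18.8 CPM with vehicle (log2 fold change 1.45 ± 0.24, adjusted p = 0.00201). Rrm2, the regulated subunit of ribonucleotide reductase, overlapped in 1 library of each group (25.5 to 54.7 CPM with LPS and 13.8 to 26.3 CPM with vehicle, log2 fold change 0.88 ± 0.26, adjusted p = 0.0361). E2f2, a transcription factor of S-phase genes, lay at 42.4 to 57.3 CPM with LPS and 20.7 to 34.4 CPM with vehicle (log2 fold change 0.89 ± 0.19, adjusted p = 0.00826). Neither Pcna, the sliding clamp (110.1 to 235 CPM with LPS and 102 to 172 CPM with vehicle, log2 fold change 0.18 ± 0.25, adjusted p = 0.65), nor cyclin D1, encoded by Ccnd1 (33.9 to 44.7 CPM with LPS and 28.1 to 35.9 CPM with vehicle, log2 fold change 0.34 ± 0.15, adjusted p = 0.148), passed the test. In DNA repair Brca2 was at 71.1, 72.6, 60.4 and 88.5 CPM with LPS and 38.4, 31.2, 19.5 and 26.9 CPM with vehicle (log2 fold change 1.35 ± 0.21, adjusted p = 0.00126), and Bard1, partner of Brca1, lay at 23.2 to 36.4 CPM with LPS and 7.59 to 14.1 CPM with vehicle (log2 fold change 1.47 ± 0.22, adjusted p = 0.00117). Myc, a transcription factor of growth counted with them, was at 16.2, 10.1, 19.98 and 17.9 CPM with LPS and 4.21, 3.23, 3.03 and 3.39 CPM with vehicle (log2 fold change 2.12 ± 0.32, adjusted p = 0.00121). Cdkn1a, also in the list although its product p21 is known to halt the cycle, was higher as well at 131, 215, 116 and 203 CPM with LPS and 67.1, 68.2, 73.6 and 108 CPM with vehicle (log2 fold change 1.03 ± 0.23, adjusted p = 0.0111). The size of the group depended on single libraries in part: it fell to 42 without VEH replicate 4 and 43 without LPS replicate 4, where replication genes fell to 9, and it was 48 after thinning, 14 in replicates 1 and 2 alone and 55 in replicates 3 and 4 alone, while the list's median stayed between 0.91 and 1.05 when any 1 library was left out. Without LPS replicate 2, LPS replicate 4, VEH replicate 2, VEH replicate 3 or VEH replicate 4 the call of Rrm2 was lost.

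**Figure D4:**
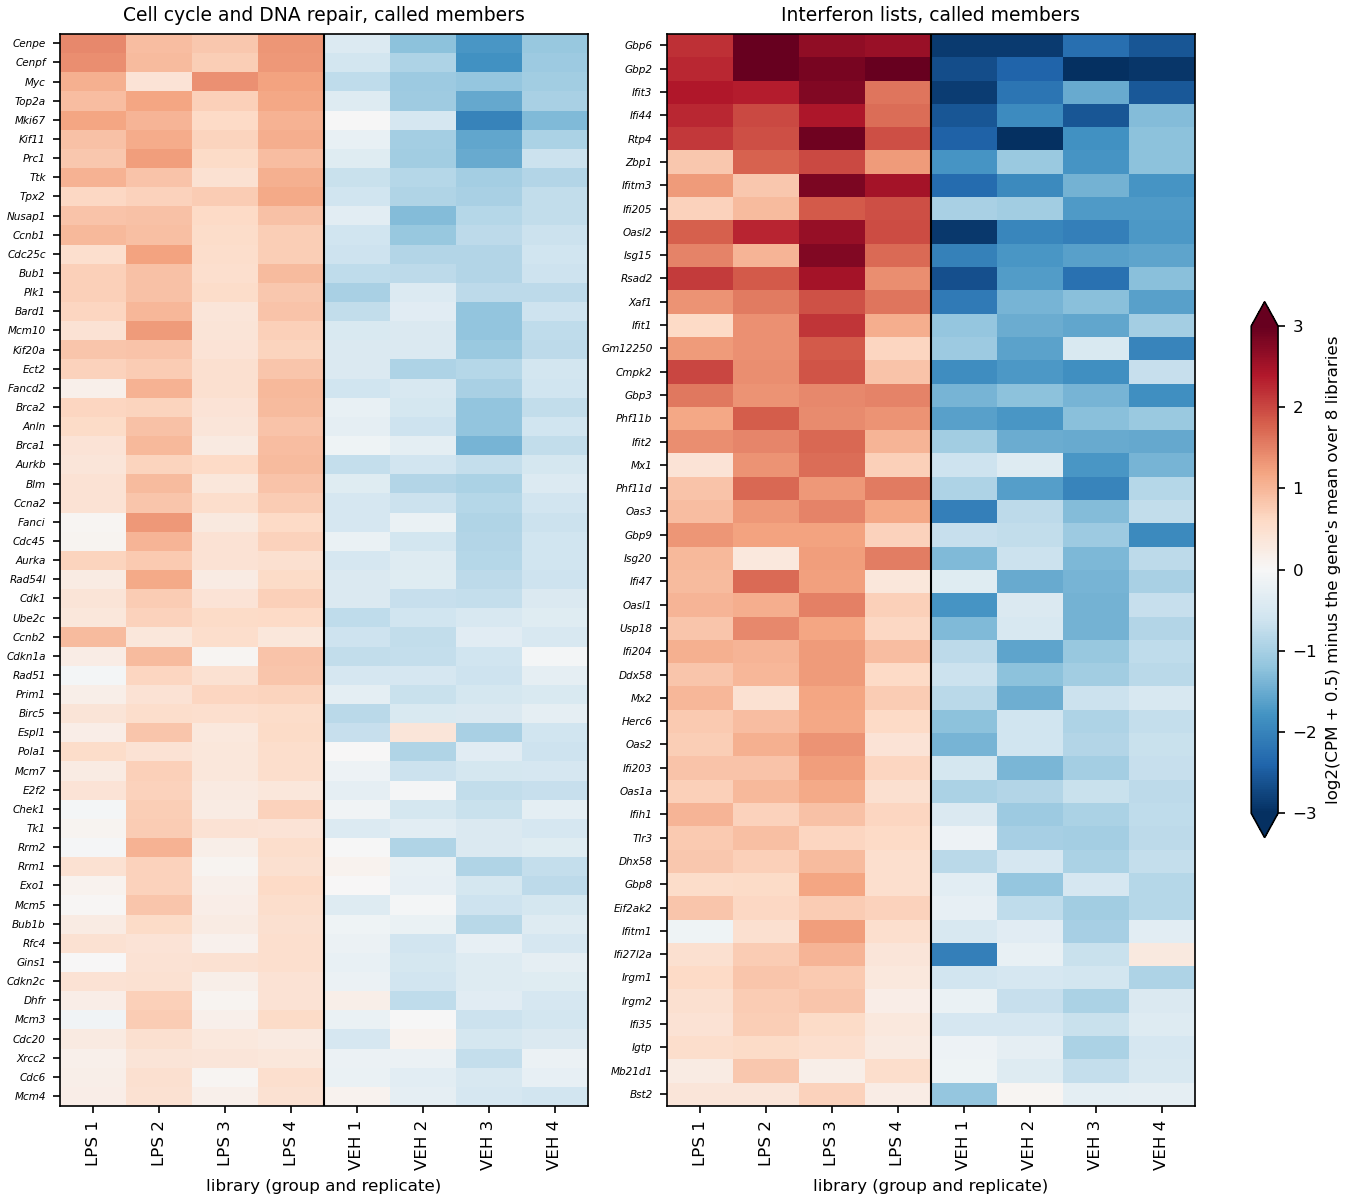
Called members of the cell-cycle list and of the interferon lists in the 8 libraries, as log2(CPM + 0.5) minus the gene's mean over the 8. Columns are LPS replicates 1 to 4 and vehicle replicates 1 to 4, and rows are genes. Both groups of genes are higher in the LPS columns, and within the vehicle columns many cell-cycle genes are higher in replicate 1 than in replicate 3.

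Of 20 genes of MHC class I and its peptide loading 7 were higher and none lower, with 5 to 7 higher when 1 library was left out and 1 lower without VEH replicate 1, and of 10 genes of class II and costimulation 2 were higher and 3 lower. No difference between these sets was tested. The non-classical class I gene H2-T23 was at 100.4, 139, 124 and 113 CPM with LPS and 39.9, 67.6, 42.8 and 50.7 CPM with vehicle (log2 fold change 1.28 ± 0.18, adjusted p = 0.000833), and Tap1, a subunit of the peptide transporter, at 147, 207, 188 and 157 CPM with LPS and 58.5, 123, 73.6 and 90.6 CPM with vehicle (log2 fold change 1.07 ± 0.22, adjusted p = 0.00668). B2m, the shared light chain, overlapped (657 to 2228 CPM with LPS and 484 to 2024 CPM with vehicle, log2 fold change 0.46 ± 0.52, adjusted p = 0.561), as replicates 3 and 4 lay above 1 and 2 in both groups, and it was called higher with the replicate number as a block (log2 fold change 0.51, adjusted p = 0.0452). Cd274, the inhibitory ligand PD-L1, was at 48.8, 63.4, 64.4 and 81.4 CPM with LPS and 26.1, 29.7, 19.7 and 32.7 CPM with vehicle (log2 fold change 1.25 ± 0.20, adjusted p = 0.00156), and Slamf7, a receptor of activated leukocytes, at 37.3, 63.9, 68.9 and 61.8 CPM in the LPS libraries and 3.403, 2.35, 3.03 and 3.27 CPM in the vehicle libraries (log2 fold change 4.20 ± 0.31, adjusted p = 1.5e-05). Cd74, the invariant chain of class II, was at 191, 149, 301 and 266 CPM in the LPS libraries and 361, 591, 759.8 and 514 CPM in the vehicle libraries, without overlap (log2 fold change -1.31 ± 0.26, adjusted p = 0.00575). Cd83, which stabilises class II at the surface, was at 81.5, 62.2, 71.9 and 39.3 CPM with LPS and 315, 218, 329 and 216 CPM with vehicle (log2 fold change -2.13 ± 0.23, adjusted p = 0.000169), and the adhesion molecule Icam1 lay at 25.2 to 43.2 CPM with LPS and 44.6 to 74.1 CPM with vehicle (log2 fold change -0.82 ± 0.21, adjusted p = 0.0213), a call lost without LPS replicates 1 or 2 or VEH replicates 3 or 4.

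Of 34 scavenger and phagocytic receptors, 9 were higher and 7 lower, beside 9.41% and 8.22% of all genes tested. With the replicate number as a block 12 were lower. Apart from Marco, the class A scavenger receptor Msr1 was at 19.7, 27.1, 23.3 and 34.6 CPM with LPS and 9.398, 3.53, 2.28 and 5.497 CPM with vehicle (log2 fold change 2.41 ± 0.34, adjusted p = 0.000852), Clec4e, the mycobacterial cord-factor receptor Mincle, at 58.9, 61.002, 51.2 and 61.7 CPM with LPS and 13.4, 12.4, 14.7 and 20.7 CPM with vehicle (log2 fold change 1.90 ± 0.18, adjusted p = 8.63e-05), and Axl, a receptor tyrosine kinase that engages apoptotic cells, at 28.4, 39.4, 20.2 and 25.1 CPM with LPS and 1.94, 13.5, 2.53 and 9.36 CPM with vehicle (log2 fold change 2.42 ± 0.47, adjusted p = 0.00574). Fcgr1, the high-affinity Fc receptor, rose 2.695-fold (116 to 148 CPM with LPS and 45.5 to 52.3 CPM with vehicle, adjusted p = 9.51e-05), Lgals9, a galectin, 2.97-fold (98.7 to 131 CPM with LPS and 27.4 to 48.2 CPM with vehicle, adjusted p = 0.000273), and Cd47, the signal that protects cells from being eaten, 1.97-fold (160.1 to 198 CPM with LPS and 73.2 to 102 CPM with vehicle, adjusted p = 0.00138). Its receptor Sirpa was lower in every LPS library, at 862, 854, 896 and 805 CPM with LPS and 1411, 1598, 1348 and 1316 CPM with vehicle (log2 fold change -0.73 ± 0.14, adjusted p = 0.00436). The mannose receptor Mrc1, a marker of alternative activation, was at 81.5, 67.999, 67.6 and 61.4 CPM with LPS and 294, 154, 126 and 118 CPM with vehicle (log2 fold change -1.23 ± 0.25, adjusted p = 0.00732). Lower as well were Lgals3, galectin 3 (529 to 613 CPM with LPS and 861 to 1357 CPM with vehicle, log2 fold change -1.02 ± 0.17, adjusted p = 0.00242), the bridging protein Mfge8 (85.8 to 153 CPM with LPS and 155 to 329 CPM with vehicle, log2 fold change -1.07 ± 0.26, adjusted p = 0.0151), the scavenger receptor Colec12 (201 to 225 CPM with LPS and 353 to 416 CPM with vehicle, log2 fold change -0.88 ± 0.13, adjusted p = 0.00093) and Fcgr3 (331 to 352 CPM with LPS and 393 to 719 CPM with vehicle, log2 fold change -0.68 ± 0.18, adjusted p = 0.0254). Fcgr3 lost its call without any 1 of the LPS libraries or VEH replicates 3 or 4, and Mfge8 without LPS replicate 4.

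Of 29 genes of microglial and macrophage identity 2 were higher and 8 lower. Trem2, the lipid-sensing receptor of microglia, was at 139.6, 162, 171 and 143 CPM in the LPS libraries and 295, 448, 443 and 418 CPM in the vehicle libraries (log2 fold change -1.37 ± 0.16, adjusted p = 0.000294), and its signalling partner Tyrobp at 277, 281, 327 and 306 CPM in the LPS libraries and 446, 744, 727 and 671 CPM in the vehicle libraries (log2 fold change -1.10 ± 0.18, adjusted p = 0.00165). They fell 2.58-fold and 2.15-fold, and in both the highest LPS value lay below the lowest vehicle value. The transcription factor Cebpa was at 37.3, 40.4, 31.8 and 23.8 CPM with LPS and 61.6, 83.8, 75.4 and 48.1 CPM with vehicle (log2 fold change -1.01 ± 0.22, adjusted p = 0.00877), and Spi1, which encodes PU.1, at 87.97 to 159 CPM with LPS and 136 to 247 CPM with vehicle, where the groups overlapped (log2 fold change -0.74 ± 0.22, adjusted p = 0.0373). Csf1r, the receptor on which macrophages depend for survival, lay at 563 to 643 CPM with LPS and 778 to 1069 CPM with vehicle (log2 fold change -0.62 ± 0.15, adjusted p = 0.0138), the purinergic receptor Gpr34 at 3.35 to 4.82 CPM with LPS and 5.88 to 17.2 CPM with vehicle (log2 fold change -1.53 ± 0.30, adjusted p = 0.00572) and the ectonucleotidase Entpd1 at 86.3 to 105 CPM with LPS and 102 to 161 CPM with vehicle (log2 fold change -0.53 ± 0.16, adjusted p = 0.0434). The 2 that rose were Adgre1 (1174, 1381, 1125 and 1167 CPM with LPS and 678, 702, 583 and 586 CPM with vehicle, log2 fold change 0.92 ± 0.14, adjusted p = 0.00133) and Tgfbr1 (26.5 to 33.4 CPM with LPS and 14.7 to 23.8 CPM with vehicle, log2 fold change 0.58 ± 0.17, adjusted p = 0.0378). The lower count was 4 without LPS replicate 4 and 5 without LPS replicate 1, LPS replicate 2, VEH replicate 3 or VEH replicate 4, and 0 in replicates 1 and 2 alone. Spi1, Entpd1 and Tgfbr1 lost their calls in 5 or more of the 8 fits that left out 1 library and Csf1r without LPS replicate 4, while Trem2, Tyrobp, Cebpa, Gpr34 and Adgre1 were called in all 8.

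The study's own lists were counted in the same way, beside the same 9.41% higher and 8.22% lower of all genes tested. Of its 26 genes of disease-associated microglia 2 were higher and 7 lower (4 and 9 with the replicate number as a block), of 11 homeostatic genes 1 was higher and 5 lower, of 24 pro-inflammatory genes 7 were higher and 2 lower, and of 28 lysosomal and phagosomal microRNA targets none was higher and 5 were lower. Among the fits that left out 1 library, the homeostatic genes had 2 lower without LPS replicate 4 and none higher except without LPS replicate 3 or VEH replicate 1, and the microRNA targets had 3 lower without LPS replicate 1, VEH replicate 3 or VEH replicate 4 and 8 lower without VEH replicate 1. In these fits 0 or 1 of the microRNA targets was called higher. The pro-inflammatory genes had 1 lower without LPS replicates 1, 2 or 4 or VEH replicates 2 or 3. From the last of these lists, the sulfatase Arsb was at 108, 108, 117 and 147 CPM with LPS and 233, 375, 372 and 471 CPM with vehicle (log2 fold change -1.56 ± 0.21, adjusted p = 0.000485), and Gm2a, the activator of ganglioside breakdown, lay at 204 to 272 CPM with LPS and 327 to 680.1 CPM with vehicle (log2 fold change -1.08 ± 0.22, adjusted p = 0.0068). Apoe, the lipid carrier in the list of disease-associated microglia, was at 1618, 1283, 1423 and 1394 CPM in the LPS libraries and 3129, 3049, 4249 and 3517 CPM in the vehicle libraries, 2.41-fold lower with LPS (log2 fold change -1.27 ± 0.16, adjusted p = 0.000401), against the direction its list is named for.

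Of 45 lysosomal genes 1 was higher and 9 were lower. The exoglycosidase Man2b1 was at 241, 239, 230.1 and 224 CPM with LPS and 543, 656, 486 and 515 CPM with vehicle (log2 fold change -1.23 ± 0.14, adjusted p = 0.000217) and the cysteine protease Ctsf at 97.98, 101, 85.2 and 75.2 CPM with LPS and 201, 241, 244 and 213 CPM with vehicle (log2 fold change -1.33 ± 0.14, adjusted p = 0.000159), and the LPS and vehicle libraries of both did not overlap. The galactosidase Glb1 (109.8 to 137 CPM with LPS and 178 to 208 CPM with vehicle, log2 fold change -0.68 ± 0.13, adjusted p = 0.00537) and Hexa (554 to 806 CPM with LPS and 826 to 1171 CPM with vehicle, log2 fold change -0.68 ± 0.17, adjusted p = 0.0202) were lower with smaller fold changes. So was Tfeb, the transcription factor of lysosomal genes (19.7 to 27.5 CPM with LPS and 35.0001 to 56.2 CPM with vehicle, log2 fold change -0.88 ± 0.19, adjusted p = 0.00912), whereas Atp6v0d2, a subunit of the proton pump of macrophages and osteoclasts, overlapped (44.9, 41.6, 78.6 and 123 CPM with LPS and 97.9, 135, 259 and 287 CPM with vehicle, log2 fold change -1.41 ± 0.39, adjusted p = 0.0302). The exception was Acp5, tartrate-resistant acid phosphatase, at 37.7, 36.8, 44.95 and 51.3 CPM in the LPS libraries and 8.43, 8.53, 6.83 and 7.602 CPM in the vehicle libraries, 5.42-fold higher (log2 fold change 2.44 ± 0.20, adjusted p = 2.85e-05). The lower count was 5 without LPS replicate 4, 6 without LPS replicate 1, VEH replicate 3 or VEH replicate 4 and 13 without VEH replicate 1, Hexa and Atp6v0d2 being among the calls that were lost. The higher count was 1 or 2 when 1 library was left out.

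Genes of alternative activation, the programme that interleukin 4 drives in macrophages, had 7 of 17 members lower and 1 higher, at a median log2 fold change of -0.81, and 7 were lower in each of the 8 fits that left out 1 library. F13a1, Mrc1 and Ccl24 of this list are given with the other groups. The higher member was Thbs1, thrombospondin 1, at low levels (1.67 to 3.71 CPM with LPS and 0.294 to 0.819 CPM with vehicle, log2 fold change 1.65 ± 0.47, adjusted p = 0.0341), a call lost without any 1 of 6 libraries. The protease Plau, urokinase, was at 122, 126, 182 and 187 CPM with LPS and 312, 427, 665 and 739 CPM with vehicle (log2 fold change -1.74 ± 0.27, adjusted p = 0.00122), and its receptor Plaur at 18.3, 12.6, 14.3 and 16.3 CPM with LPS and 34.2, 50.6, 36.9 and 35.7 CPM with vehicle (log2 fold change -1.37 ± 0.18, adjusted p = 0.000452), so that both members of the pair were below their vehicle range in every LPS library. Sepp1, the secreted selenium carrier selenoprotein P, was at 152, 102, 190.4 and 107 CPM in the LPS libraries and 697, 498, 953 and 566 CPM in the vehicle libraries (log2 fold change -2.30 ± 0.24, adjusted p = 0.000138). Among the migration and matrix genes, 5 of 14 were lower and 1 higher. Agt was the lowest of them, and Vim, the intermediate filament vimentin, fell by 0.75 on the log2 scale (1539.7 to 1790.4 CPM with LPS and 2181 to 3913 CPM with vehicle, adjusted p = 0.0296), a call lost without any 1 of the LPS libraries or VEH replicates 3 or 4. The lower count of this list was 2 without LPS replicate 1, LPS replicate 4, VEH replicate 3 or VEH replicate 4.

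In lipid mediators, 2 of 12 genes were higher and 2 lower. Ptgs2, the inducible cyclooxygenase COX-2, was at 40.2, 43.1, 27.6 and 44.6 CPM in the LPS libraries and 5.83, 5.29, 6.07 and 13.4 CPM in the vehicle libraries (log2 fold change 2.29 ± 0.30, adjusted p = 0.000485). Its constitutive counterpart Ptgs1 moved the other way, at 75.7, 91.8, 80.6 and 71.7 CPM in the LPS libraries and 216, 186, 218 and 192 CPM in the vehicle libraries (log2 fold change -1.34 ± 0.14, adjusted p = 9.95e-05). Ltc4s, which makes leukotriene C4, was at 3.59, 2.72, 5.14 and 6.31 CPM with LPS and 13.6, 19.1, 28.3 and 26.4 CPM with vehicle (log2 fold change -2.23 ± 0.32, adjusted p = 0.000827). Ptges, the prostaglandin E synthase, overlapped at 1.79 to 3.48 CPM with LPS and 0.702 to 2.28 CPM with vehicle (log2 fold change 1.23 ± 0.38, adjusted p = 0.0441), and it was not called with the replicate number as a block or in 6 of the 8 left-out fits. Inflammasome genes had 2 of 10 higher and 1 lower: Casp4, the caspase that senses LPS inside the cell, was at 49.2, 49.05, 50.9 and 42.8 CPM in the LPS libraries and 13.9, 9.704, 13.7 and 11.1 CPM in the vehicle libraries (log2 fold change 1.98 ± 0.17, adjusted p = 4.16e-05), Naip2, a sensor of bacterial secretion systems, lay at 105 to 139.6 CPM with LPS and 72.8 to 77.1 CPM with vehicle (log2 fold change 0.65 ± 0.14, adjusted p = 0.00781), and Nlrp1b overlapped at 4.64 to 8.26 CPM with LPS and 8.07 to 16.2 CPM with vehicle (log2 fold change -0.96 ± 0.28, adjusted p = 0.0339), a call kept only without LPS replicate 3 or VEH replicate 4.

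In the metabolic lists the shares called in either direction lay near that of all genes tested (17.6%, with 9.41% higher and 8.22% lower). The calls of the lipid list were all in the lower direction. Of 35 genes of glycolysis, the pentose phosphate pathway and the response to hypoxia 4 were higher and 2 lower (7 higher with the replicate number as a block). None of the higher genes was one of glucose uptake or glycolysis, of which 2 were called higher without VEH replicate 4. The lower count was 5 without VEH replicate 1, 1 without VEH replicates 2 or 3 and 0 without LPS replicates 2, 3 or 4 or VEH replicate 4. Ero1l, an oxidase of the endoplasmic reticulum, was at 818, 819.7, 636 and 949.7 CPM with LPS and 202, 341, 201 and 378 CPM with vehicle (log2 fold change 1.57 ± 0.23, adjusted p = 0.00102), and P4ha1, a collagen prolyl hydroxylase, lay at 181 to 209 CPM with LPS and 96.2 to 139 CPM with vehicle (log2 fold change 0.70 ± 0.15, adjusted p = 0.00834). Gapdh was lower at 2572, 1877, 2236 and 1587 CPM with LPS and 2587, 3639, 4418 and 3389 CPM with vehicle (log2 fold change -0.75 ± 0.21, adjusted p = 0.0292) and its call was lost without LPS replicates 2, 3 or 4 or VEH replicates 2, 3 or 4. Of 37 lipid genes none was higher and 7 were lower, among them Hmgcs1, an enzyme of cholesterol synthesis (36.8 to 87.9 CPM with LPS and 81.5 to 156 CPM with vehicle, log2 fold change -0.94 ± 0.26, adjusted p = 0.0298), the fatty acid synthase Fasn (172 to 275 CPM with LPS and 298 to 642 CPM with vehicle, log2 fold change -0.91 ± 0.24, adjusted p = 0.0223) and the sterol exporter Abcg1 (151 to 179.7 CPM with LPS and 232 to 262 CPM with vehicle, log2 fold change -0.58 ± 0.13, adjusted p = 0.0115). Except for Abcg1 these calls were lost without 3 to 5 of the libraries, and 2 lipid genes were called without LPS replicate 4, while 1 was called higher without VEH replicate 1.

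Of 29 antioxidant and NADPH oxidase genes 8 were higher and 1 lower, beside 9.41% and 8.22% of all genes tested (11 and 3 with the replicate number as a block). When 1 library was left out 5 to 7 were higher, the lowest count being that without VEH replicate 4, and 0 to 2 were lower, with 2 without VEH replicate 1. Hmox1, haem oxygenase 1, was at 724, 871, 782 and 847 CPM in the LPS libraries and 298, 428, 352 and 434 CPM in the vehicle libraries (log2 fold change 1.10 ± 0.16, adjusted p = 0.000964). The cystine importer Slc7a11 was at 47.4, 34.5, 51.2 and 44.4 CPM with LPS and 19.4, 15.6, 21.5 and 24.1 CPM with vehicle (log2 fold change 1.10 ± 0.19, adjusted p = 0.00247), and Gsr, which regenerates glutathione, at 40.6, 28.1, 30.5 and 42.5 CPM with LPS and 14.6, 10.6, 11.4 and 14.4 CPM with vehicle (log2 fold change 1.40 ± 0.21, adjusted p = 0.001). Cybb, the catalytic subunit of the phagocyte NADPH oxidase, rose 2.105-fold (918 to 1134 CPM with LPS and 383 to 616 CPM with vehicle, adjusted p = 0.00167), while Cyba, its partner in the membrane, fell 1.69-fold (302 to 418 CPM with LPS and 442 to 732 CPM with vehicle, adjusted p = 0.0145), a call lost without LPS replicate 1. Of 18 genes of the Atf4 and unfolded protein response 7 were higher and none lower. Atf4 itself was at 236, 206, 284 and 269 CPM with LPS and 135, 109, 177 and 132 CPM with vehicle (log2 fold change 0.85 ± 0.17, adjusted p = 0.00673), its target Ddit3, the factor CHOP, at 34.8, 27.4, 82.8 and 76.9 CPM with LPS and 10.05, 6.76, 8.599 and 12.05 CPM with vehicle (log2 fold change 2.40 ± 0.42, adjusted p = 0.00273), and Asns, asparagine synthetase, at 129, 139, 129.8 and 107 CPM with LPS and 68.1, 57.9, 68.5 and 54.1 CPM with vehicle (log2 fold change 1.03 ± 0.15, adjusted p = 0.000861). Trib3 was at 25.8, 28.3, 31.97 and 19.5 CPM with LPS and 3.89, 4.41, 0.506 and 9.47 CPM with vehicle (log2 fold change 2.78 ± 0.53, adjusted p = 0.00501), Mthfd2, of mitochondrial one-carbon metabolism, lay at 63.7 to 85.8 CPM with LPS and 20.5 to 32.4 CPM with vehicle (log2 fold change 1.57 ± 0.18, adjusted p = 0.000274) and Atf5 at 32.7 to 46.3 CPM with LPS and 12.5 to 22.1 CPM with vehicle (log2 fold change 1.37 ± 0.21, adjusted p = 0.00121). The LPS values of all 6 lay above the highest vehicle value.

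The 10 called genes that took most counts included 4 structural RNAs. Rn7sk, the 7SK RNA that holds back transcription elongation, was at 11819, 6952, 11229 and 9399 CPM in the LPS libraries and 17203, 37305, 33896 and 36151 CPM in the vehicle libraries (log2 fold change -1.62 ± 0.27, adjusted p = 0.002). Rpph1, the RNA of RNase P, was at 5149.99, 5316, 5756 and 5408 CPM in the LPS libraries and 8589, 26364, 19479 and 22472 CPM in the vehicle libraries (log2 fold change -1.73 ± 0.29, adjusted p = 0.00223), and Rmrp, that of RNase MRP, at 1929, 1730.2, 3388 and 2565 CPM with LPS and 3046, 8703, 9644 and 8860.3 CPM with vehicle, where vehicle replicate 1 fell among the LPS values (log2 fold change -1.59 ± 0.35, adjusted p = 0.00943). Gm24447, a transcript of the miscellaneous RNA class, was at 2309 to 4818 CPM with LPS and 7366 to 14156 CPM with vehicle (log2 fold change -1.79 ± 0.29, adjusted p = 0.00164). These RNAs are themselves part of the structural RNA share of each library given above. Rmrp overlaps Ccdc107 on the other strand and Rpph1 lies within Ccnb1ip1. Gapdh overlaps Iffo1, and Yam1 overlaps CT010467.1 and AY036118, all on the other strand. Gnb2l1 overlaps Trim41 on the other strand and Gm25296, Snord96a and Snord95 on its own. Some reads of these genes may therefore belong to a neighbour. The lowest posterior of a restored Yam1 value was 0.922. The iron store Fth1 was the 1 gene of the 10 that was higher, at 7907, 8279, 5838 and 5801 CPM in the LPS libraries and 3143, 3545, 3798 and 3254 CPM in the vehicle libraries (log2 fold change 1.01 ± 0.17, adjusted p = 0.00243). Rplp0, Actb, Gnb2l1, Yam1 and Gapdh were lower by 1.59-fold to 2.10-fold. None of the 10 changed sign with DESeq2 size factors, nor, where it was kept, with the structural RNA genes left out, and the call of Gnb2l1 was lost without LPS replicates 1 or 4 and that of Yam1 without LPS replicates 1, 2 or 4 or VEH replicates 3 or 4.

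The same treatment was then read in cells with a microRNA mimic in place of the scramble, each comparison having its own LPS and vehicle libraries. At the same thresholds 820 of 11949 genes were called with the miR-7a mimic (6.86%), 3267 of 12302 with miR-29a (26.6%) and 544 of 12193 with miR-146a (4.46%). Of the genes called higher in scramble cells and tested in the mimic cells, 97.1%, 98.3% and 92.1% had the same sign with miR-7a, miR-29a and miR-146a, and 22.1%, 74.6% and 26.0% were also called higher. Of the genes called lower, 95.6%, 98.3% and 91.5% had the same sign, and 31.9%, 69.2% and 14.7% were called lower. Over all genes tested in both, 75.8%, 79.98% and 66.3% had the same sign. The interferon-stimulated genes were higher in 31 of 42, 36 of 42 and 27 of 38 members, and the GTPases in 15 of 15, 13 of 14 and 5 of 9. Of the cell-cycle genes 5 of 72 members were called higher with miR-7a, 60 of 72 with miR-29a and 26 of 71 with miR-146a, at medians of 0.56, 1.05 and 0.66. Genes of alternative activation were lower in 6 of 16, 11 of 17 and 6 of 17 members. These counts stand beside unequal shares of all genes called in each background, and a difference between backgrounds rests only on the interaction test.

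**Figure D5:**
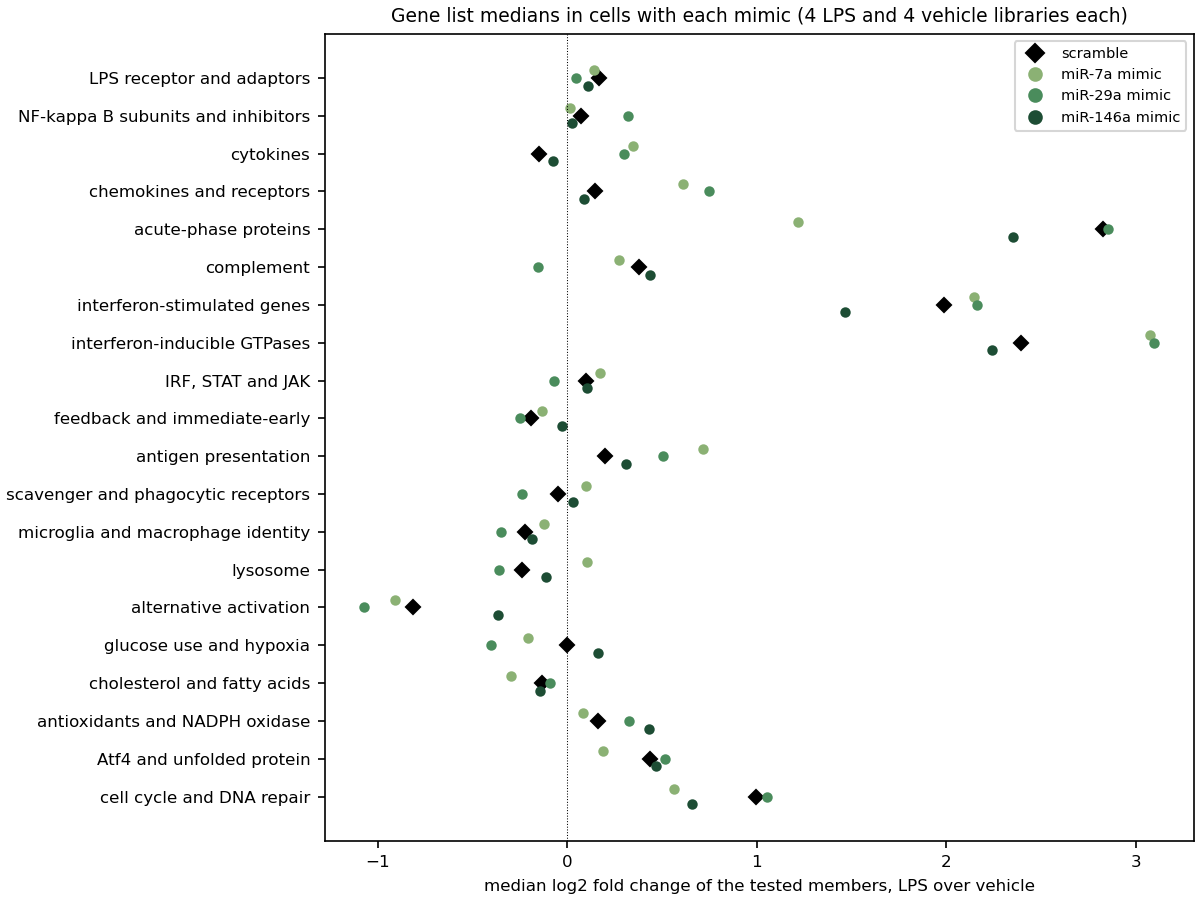
Median log2 fold change (LPS over vehicle) of each gene list in scramble cells (black diamonds) and in cells with the miR-7a, miR-29a or miR-146a mimic (coloured points). The interferon lists have medians of 1.46 or more in every background, and the cell-cycle list has medians of 0.56 to 1.05.

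The interaction test, which asks whether the response to LPS differed from that in scramble cells, found 13 of 12361 genes for miR-7a (0.105%), 2 of 12513 for miR-29a (0.016%) and 0 of 12558 for miR-146a (0%) at an adjusted p below 0.05 in limma-voom. Unadjusted p-values were below 0.05 in 686, 808 and 1395 genes, and edgeR's quasi-likelihood test called 19, 2 and 0. With the replicate number as a block 51, 15 and 0 genes were called. Leaving out 1 library changed these counts: miR-7a had 141 without VEH_miR-7a replicate 1 and 10 to 19 otherwise, miR-29a had 0 to 3, and miR-146a had 71 without VEH_scramble replicate 1 and 0 otherwise.

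CPM in mimic cells are scaled within their own 8 libraries. Against plain totals this scaling moved LPS over vehicle by -0.21 on the log2 scale in scramble cells, beside -0.62 in miR-7a, -0.18 in miR-29a and -0.089 in miR-146a cells, so that a difference between backgrounds is relative to it. For 4 of the 13 genes the fall with LPS in scramble cells was smaller or absent with the miR-7a mimic. Cd93, a receptor of myeloid cells, was at 5.74, 5.71, 4.14 and 3.53 CPM with LPS and 22.8, 17.3, 24.03 and 25.5 CPM with vehicle in scramble cells (log2 fold change -2.34 ± 0.22) and at 5.54 to 8.11 CPM with LPS and 7.34 to 12.02 CPM with vehicle in miR-7a cells (log2 fold change -0.54, interaction 1.83 ± 0.33, adjusted p = 0.0264). Txnip fell with a log2 fold change of -3.34 ± 0.19 in scramble cells and of -0.89 in miR-7a cells (interaction 2.48 ± 0.22, adjusted p = 1.04e-05). Angptl2, a secreted angiopoietin-like protein, fell by 1.04 on the log2 scale in scramble cells (43.7 to 62.4 CPM with LPS and 98.2 to 126 CPM with vehicle; interaction 1.33 ± 0.25, adjusted p = 0.0483), and Slc37a2, a sugar-phosphate exchanger of macrophages, fell by 1.18 (67.4 to 98.8 CPM with LPS and 175 to 220.4 CPM with vehicle; interaction 1.21 ± 0.21, adjusted p = 0.0174). In miR-7a cells Angptl2 lay at 48.4 to 60.4 CPM with LPS and 28.3 to 55.5 CPM with vehicle. There Slc37a2 lay at 127 to 171 CPM with LPS and 131 to 163 CPM with vehicle. The other 9 had negative interactions. In 8 of them, the histone genes Hist1h4h, Hist1h4j and Hist1h4m, the snoRNA host genes Snhg3, Snhg4 and Snhg20, Ccdc107 (which overlaps Rmrp) and AC122546.1, the 4 vehicle libraries with the miR-7a mimic were the high ones. Brox, of the BRO1 family, instead was low in the LPS libraries with the mimic, at 7.102 to 7.98 CPM against 72.01 to 74.4 CPM with vehicle, and lay at 66.1 to 75.03 CPM with LPS and 63.2 to 87.01 CPM with vehicle in scramble cells (interaction -3.11 ± 0.19, adjusted p = 3.76e-08). The gap in Brox is about what a decimal mark misread by a digit would give, which was not tested. The lowest posterior of its restored values was 0.962. For miR-29a, Myom3 was at 58.1, 55.7, 60.2 and 58.4 CPM with LPS and 110.2, 139, 106 and 132 CPM with vehicle in scramble cells and fell further in mimic cells, to 23.5 to 28.97 CPM with LPS against 108 to 168 CPM with vehicle (interaction -1.38 ± 0.21, adjusted p = 0.0245), and Appl2, an endosomal adaptor, at 124 to 142 CPM with LPS and 128 to 154 CPM with vehicle in scramble cells, was at 71.1 to 93.1 CPM with LPS against 160.1 to 196 CPM with vehicle in mimic cells (interaction -1.12 ± 0.17, adjusted p = 0.0245).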

How the data were processed

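RNA of the 8 LPS_scramble and VEH_scramble libraries was read from a table of the whole series. The authors aligned and quantified reads with nf-core rnaseq 3.0 on GRCm38, per the study's methods, and deposited estimated counts per gene, unnormalized. The deposited values had lost their decimal marks, so that many read about 1000 times too high. Each was restored here to the most probable reading from its digits, from the other libraries and from each library's total. The reading used the group and the LPS or vehicle label of each library. Replicates of a group were therefore not read independently, and the effect of this on the p-values was not tested. Successive versions of this step were compared, and 2 of its rules, which mark a single reading or a group that stands far above the others, were added after differences between groups had been seen. Of the values above 0 in the 8 libraries, 30.1% had lost decimals and 1.07% were uncertain (posterior probability under 0.9), and 1316 genes with such a value were left out. Restored totals were 2725545 to 20521289 counts.

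Genes were filtered with filterByExpr, scaled by TMM and tested with limma-voom (limma 3.58.1, edgeR 4.0.16, R 4.3.3) on the 8 libraries, with Benjamini-Hochberg adjustment over all 12403 genes tested. CPM are restored counts over the TMM-scaled library size, set within the 8 libraries of each background. Interactions were tested over 16 libraries at a time. Shares were compared with an exact permutation test over libraries (scipy 1.17.1). Same-numbered LPS and vehicle libraries deviated together from their group means (correlations 0.274, 0.156, 0.169 and 0.247, each above the 0.1 required) and were taken as pairs, although LPS replicate 2 correlated as much with VEH replicate 1 (0.171) and LPS replicate 3 with VEH replicate 4 (0.206). The tests were also run on simulated data, which were built from the restored values with an equal spread for all genes and no replicate structure. That run does not give the error rate of the tests or of the restoration on these libraries. Named genes were the 15 largest and 15 smallest differences with the same sign in all 4 pairs and at least 5 CPM, the 10 called genes with the most counts, and members of 33 lists, of which a few genes are not reported here. The members and lists were chosen with earlier results of these data known, and 806 symbols were listed, of which 634 were tested. Sequences are RefSeq's, matched by symbol to 8544 of 12391 tested genes. Alternatives covered the scaling, filter, test, weights, pairing, restoration, depth and each library. DESeq2 1.42.0 was an alternative test.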

Additional observations from a re-analysis of the deposited data

Results flagged for a closer look

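In 19 of the 416 groups of 4 values examined for the named genes, 1 library lay far from the other 3, its gap to the nearest, as a share of the group's range, passing Dixon's critical value. Chance flags about 1 in 20 groups, and these were 4.57%. Stat3 was highest in replicate 2 of both groups, at 142 CPM with LPS against 112 to 114 (gap ratio 0.956) and at 92.6 CPM with vehicle against 67.1 to 71.3 (0.834). Appl2 was lowest in replicate 3 of both groups, at 124 CPM with LPS (0.845) and 128 CPM with vehicle (0.85). In the LPS group a single library was also high for Nr4a1 (0.937, replicate 3), Csf1r (0.898, replicate 2), Rtp4 (0.859, replicate 3), Gm26477 (0.879, replicate 3) and Gm26224 (0.846, replicate 1), and low for Fcgr3 (0.86, replicate 4). In the vehicle group it was high for Ptgs2 (0.905, replicate 4), Plaur (0.833, replicate 2), Mthfd2 (0.893, replicate 1), Cdkn1a (0.839, replicate 4) and Apol9a (1, replicate 4), and low for Colec12 (0.841, replicate 2) and F13a1 (0.877, replicate 3). Vehicle replicate 1 was low for Rn7sk (0.83, 17203 CPM against 33896 to 37305) and Rmrp (0.858, 3046 CPM against 8703 to 9644), and its structural RNA share, 6.75%, was the lowest of the vehicle libraries.

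The response to LPS differed between scramble cells and cells with the miR-7a mimic in 13 genes, by a test of the interaction (limma-voom, adjusted p below 0.05). The differences of log2 fold change were 1.33 for Angptl2, 1.83 for Cd93, 1.21 for Slc37a2 and 2.48 for Txnip, whose values had restored readings with a posterior of 1.00 throughout. They were -3.29 for Ccdc107, -3.11 for Brox, -3.46 for Hist1h4h, -3.24 for Hist1h4j, -2.70 for Hist1h4m, -3.73 for Snhg3, -3.39 for Snhg20, -4.19 for Snhg4 and -4.13 for AC122546.1. The lowest posterior of a restored value was 0.901 in Hist1h4m, 0.947 in Ccdc107, 0.949 in Hist1h4h, 0.962 in Brox and 0.983 in Hist1h4j, and the reading of these is less certain. With the miR-29a mimic the response differed in Appl2 (-1.12) and Myom3 (-1.38).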

How the results depend on the processing

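Depth limits the low genes: 3 counts are 1.08 CPM in LPS replicate 1, and thinning all libraries to its 2725545 counts left 1694 calls. Of 205 named genes tested, none changed sign with DESeq2 size factors, another test (edgeR, DESeq2, limma-trend), other filters, the replicate block or all 32 libraries in one fit, and none of the 198 that remained did with the structural RNA genes left out. The fit with a replicate block called 3072 genes in place of 2187, and apart from Ptges, Rela, B2m and Cenpa no call of a named gene changed.

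The number of called genes was 4461 with sample quality weights (2266 higher, 2195 lower) and 108 on the values as deposited (80 higher, 28 lower), where lost decimal marks inflate values unevenly. Leaving out 1 library gave 1126 to 2902 genes, 660 to 1465 of them higher and 466 to 1437 lower. Chosen after seeing the data, replicates 1 and 2 alone gave 225 (156 higher, 69 lower) and replicates 3 and 4 alone, the same number of libraries, 3194 (1492 higher, 1702 lower). For the interactions the replicate block gave 51 genes with miR-7a and 15 with miR-29a, and leaving out 1 library, an alternative also chosen after seeing the data, gave 10 to 141 with miR-7a, 0 to 3 with miR-29a and 0 to 71 with miR-146a. The difference in structural RNA share was -6.69 to -4.86 percentage points when 1 library was left out, with an exact permutation p of 0.0571 without any 1 LPS library and 0.0286 without any 1 vehicle library. The difference in mitochondrial share ran from -0.0574 to 0.366. Where a cause is not named here, the cause was not tested.

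On the values as deposited the log2 fold change turned its sign in Tnfaip3 (-2.09), Tnip1 (-1.84), Nfkbid (2.94), Rela (0.67), Il1rn (-0.73), Vegfa (-1.54), Pdgfa (0.78), Pf4 (0.57), Cp (-0.23), Irf3 (9.03), Irf5 (0.38), Stat2 (-2.07), Igtp (-0.44), Socs6 (3.87), Zfp36l1 (5.63), Nlrp1b (0.52), Ptges (-1.56), Colec12 (1.89), Sirpa (1.91), Fasn (1.80), Abcg1 (1.79), Hmox1 (-1.26), Gsr (-1.40), Fth1 (-0.35), Cybb (-0.85), Mcm7 (-1.83), Brca2 (-1.41), Cenpa (0.38), Txnip (0.19), Sphk1 (0.60), Rmrp (1.12), Myom3 (3.93), Tnf (0.052), Nfkbia (0.13), Mbp (1.08) and Vim (0.51). Otherwise only genes that were not called turned. Leaving out 1 library, Ccl3 ran from -0.73 to 0.42, Tnf from -0.21 to 0.10, Nfkbia from -0.27 to 0.047, Ccl4 from -0.66 to 0.038, P2ry12 from -0.16 to 0.31 and Pcna from -0.015 to 0.33. Replicates 1 and 2 alone gave -0.086 for Pcna and 0.078 for Ccl4, replicates 3 and 4 alone 0.011 for Tnf and 0.071 for Nfkbia, sample quality weights 0.24 for Nfkbia and thinning 0.18 for Tnf.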
